A study of Sus scrofa with 21 samples.

Results

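SLPI, WFDC2, SERPINA1 and SERPINA3-2 encode secreted protease inhibitors, and their RNA was followed in the uterine lining of the pig through implantation. Every probe whose RefSeq accession, read without its version, belongs to one of these genes was taken. This gave 12 of the 43603 probes on the array and 4 of the 2389 genes that could be named. SLPI has 7 probes, WFDC2 has 2, SERPINA1 has 2 and SERPINA3-2 has 1, and all 12 were bright enough to be tested. The 4 genes were chosen by measured levels on these arrays, with results of the data in view. SLPI was selected on a lower level at attachment sites of day 13 than in non-pregnant sows, so that difference is given here as a description with no test. The values that singled out the other genes are not recorded, so the adjusted p-values below describe where the genes lie in the fit and are not independent support for it.

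Endometrium of Large White sows was hybridised to 21 one-colour Agilent porcine arrays in 7 groups of 3. The pregnant animals were 9 sows inseminated by a boar and killed on day 13, 18 or 24, with 3 sows a day, and each gave tissue from a conceptus attachment site and from the stretch between such sites, the inter-site. The non-pregnant animals were 3 sows given inactivated sperm of that boar and killed on day 13, with tissue from comparable places. No non-pregnant group of day 18 or 24 was analysed here, so differences between days were measured in pregnant sows alone. Each sample is a piece of whole endometrium, so fewer cells of a type and less RNA per cell cannot be told apart. Levels are log2 signals relative to the 75th percentile of the array, so a difference of 1 is a 2-fold difference, and they are never set between probes of different genes.

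The inhibitors belong to unrelated protein families. Whey acidic protein (WAP) inhibitors such as SLPI carry small domains held by disulphide bonds, which plug the active site of a protease, and epithelia of mucosal surfaces secrete them. Serpins are larger proteins that offer a reactive loop as bait, and once the protease cuts it the pair is locked together and cleared. In the pig the conceptus stays on the surface of the uterine epithelium and does not invade it, although its trophoblast is proteolytic when placed elsewhere, and a uterine secretion rich in inhibitors has long been described. In the RefSeq gene table used for names (assembly Sscrofa11.1), SLPI and WFDC2 lie on one chromosome within a cluster of WAP genes, and both serpin genes lie on another.

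The arrays were comparable in quality, with 62.3% to 77.1% of probes well above background and no saturated spot. Epithelial markers, 6 of 6 on the array, were well above background on every array. Replicate 1 of the day 13 inter-sites and replicate 3 of the day 24 inter-sites stood apart from their groups: DKK1, a secreted WNT inhibitor at 3.54 to 5.67 on the other arrays of pregnant sows, was at -3.24 and -6.13 on them, against -5.37 to -4.63 in non-pregnant sows. Means and differences between groups below that rest on them are given with and without them, and within-slide differences that rest on them are marked. At 30 probes that were on or off within groups, the arrays fell into 13 sets, and 3 sets held several arrays of one group. These were replicates 1 and 2 of the non-pregnant sows, of the day 18 inter-sites and of the day 24 attachment sites. Separate animals behind each array of those groups cannot be assumed. Most calls below involve the day 24 attachment sites, so their spread and p-values carry this limit. Replicate 3 of the day 24 inter-sites shared its set with replicate 3 of the non-pregnant sows, and these arrays correlated at 0.988 over the tested probes.

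**Figure D1:**
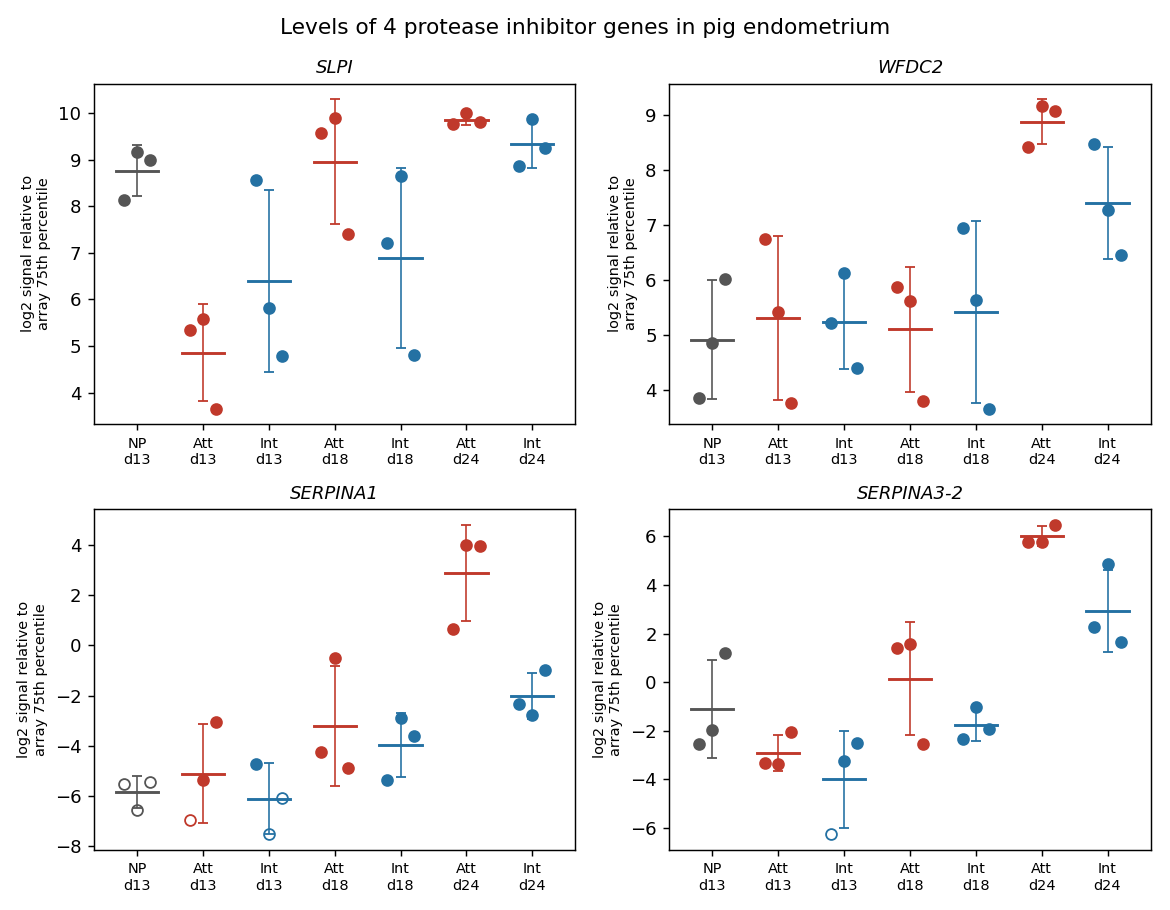
Each panel plots the log2 level of one gene relative to the array's 75th percentile (vertical axis) in the 7 groups (NP, non-pregnant; Att, attachment site; Int, inter-site; d, day). Points are arrays in replicate order, open where the probe was not well above background, and bars are the mean ± SD of 3 arrays; the day 24 attachment sites have the highest mean in all 4 panels, and SLPI has its lowest mean at attachment sites of day 13.

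SLPI, the secretory leukocyte protease inhibitor that blocks neutrophil elastase and cathepsin G, was lowest at attachment sites of day 13 and high in non-pregnant sows and on day 24. Its levels in non-pregnant sows were 8.14, 9.16 and 8.99. At attachment sites of day 13 they were 5.34, 5.57 and 3.66, below every non-pregnant array. They were 9.56, 9.89 and 7.41 there on day 18 and 9.77, 9.995 and 9.80 on day 24, where the 3 arrays spanned 0.22. Inter-sites varied more, at 8.56, 5.81 and 4.79 on day 13, 7.22, 8.64 and 4.82 on day 18, and 8.86, 9.87 and 9.24 on day 24. The high value of the day 13 inter-sites was that of the library that stood apart, and without it the mean of the group was 5.30 in place of 6.39. Without the library that stood apart on day 24 the inter-site mean was 9.37.

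In order of mean level, SLPI ran from day 24 attachment sites (9.86 ± 0.12, SD, n = 3 here and below) through day 24 inter-sites (9.33 ± 0.51), day 18 attachment sites (8.95 ± 1.35), non-pregnant sows (8.77 ± 0.54), day 18 inter-sites (6.89 ± 1.93) and day 13 inter-sites (6.39 ± 1.95) to day 13 attachment sites (4.86 ± 1.04). Each group overlapped the next in this order. The difference between attachment sites of day 13 and non-pregnant sows was -3.91 (SE 0.945), a 15.0-fold lower level. Within the 2 slides that held arrays of both groups it was -3.82 and -5.33.

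At attachment sites SLPI rose 17.1-fold from day 13 to day 18, a difference of 4.10 (SE 0.945, limma adjusted p = 0.0397), and 5.91 within the one slide with both groups. From day 18 to day 24 the difference was 0.90 (95% interval -1.09 to 2.90, adjusted p = 0.598). From day 13 to day 24 it rose 31.99-fold, by 5.0 (SE 0.945, adjusted p = 0.00294), and by 4.43 within each of 2 slides. The comparisons with day 13 reuse the attachment-site arrays whose low level chose SLPI, so their p-values are no support for a rise. At inter-sites the difference from day 13 to day 24 was 2.94 (SE 0.945, adjusted p = 0.172), with every day 24 array above every day 13 array. It was 4.07 (adjusted p = 0.0996) without both libraries that stood apart. Within the 1 slide with both groups it was 0.30, a value that rests on the day 13 library that stood apart. The call for day 18 against day 13 was lost without any single array of the day 13 attachment sites or without day 18 replicate 1 or 2 (3.497 to 4.45, adjusted p = 0.0786 to 0.176), while the one for day 24 against day 13 was kept when any one array was left out (4.40 to 5.36).

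The site difference of SLPI was negative on day 13 and positive on the later days, and none of these values passed the test. Attachment sites were lower than inter-sites by 1.53 on day 13 (difference -1.53, 95% interval -3.53 to 0.47, adjusted p = 0.592), and higher on day 18 (2.06, 0.07 to 4.06, adjusted p = 0.981) and day 24 (0.53, -1.47 to 2.53, adjusted p = 0.937). Without both libraries that stood apart the difference was -0.44 on day 13 and 0.49 on day 24. The change in the site difference from day 13 to day 18 was 3.59 (SE 1.34, adjusted p = 0.599), and 2.51 without these libraries.

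All 7 SLPI probes followed one course over the 21 arrays, with pairwise correlations of 0.977 to 0.9998. For attachment sites of day 13 against non-pregnant sows the probes gave -4.07 to -3.59. For day 18 against day 13 they gave 3.71 to 4.35, and for day 24 against day 13 4.21 to 5.92, with 7 of 7 called in both. They share one transcript, so they repeat the measurement and not the animals.

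**Figure D2:**
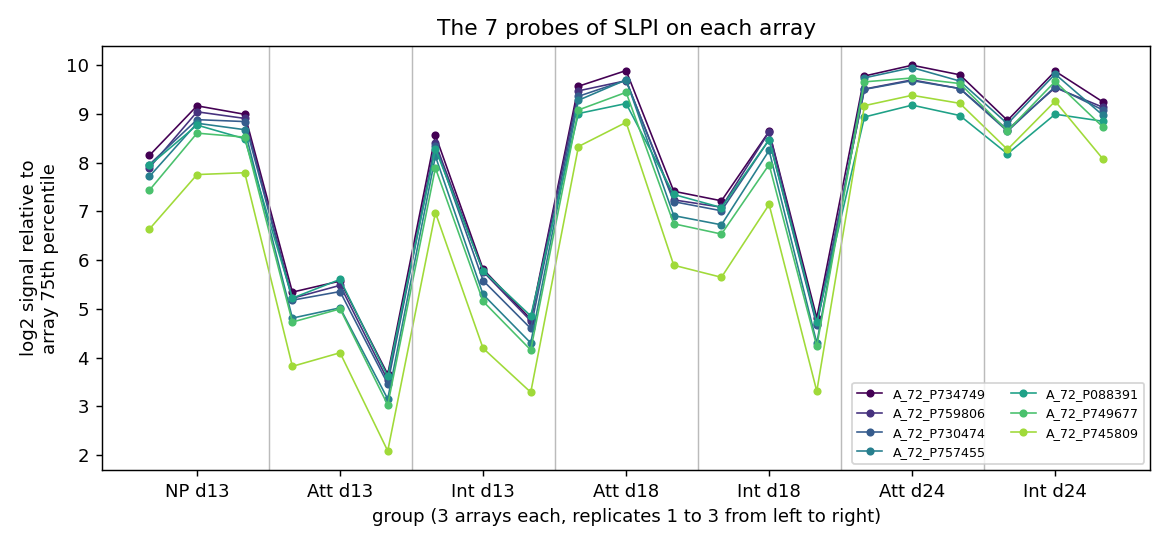
Log2 level relative to the array's 75th percentile (vertical axis) of each of the 7 SLPI probes (lines, named by probe) on the 21 arrays, ordered by group along the horizontal axis with replicates 1 to 3 from left to right. The probes differ in brightness but rise and fall together, and all drop on the 3 arrays of the day 13 attachment sites.

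WFDC2, a WAP protein of epithelial secretions also known as HE4, had means of 4.91 to 5.41 in the 5 groups before day 24 and was higher on day 24. It was at 3.86, 4.86 and 6.03 in non-pregnant sows, at 6.74, 5.41 and 3.76 at attachment sites of day 13, and at 5.88, 5.61 and 3.80 there on day 18. On day 24 these sites had 8.41, 9.16 and 9.08, above every array of the earlier groups. Inter-sites gave 5.21, 6.12 and 4.39 on day 13, 6.94, 5.64 and 3.66 on day 18, and 8.47, 7.28 and 6.46 on day 24. The order of the means was day 24 attachment sites (8.88 ± 0.41), day 24 inter-sites (7.40 ± 1.01), day 18 inter-sites (5.41), day 13 attachment sites (5.30), day 13 inter-sites (5.24), day 18 attachment sites (5.10) and non-pregnant sows (4.91), and every neighbour overlapped. Without the libraries that stood apart the inter-site means were 7.87 on day 24 and 5.26 on day 13.

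At attachment sites WFDC2 rose 13.8-fold from day 18 to day 24, by 3.78 (SE 0.873, adjusted p = 0.0206), and 11.9-fold from day 13 to day 24, by 3.58 (SE 0.873, adjusted p = 0.0118). Its second probe gave 3.89 and 3.68. Within slides the rise was 4.37 from day 18 and 1.67 and 3.75 from day 13. At inter-sites day 24 was above day 18 by 1.99 (SE 0.873, adjusted p = 0.32) and above day 13 by 2.16 (SE 0.873, adjusted p = 0.28). Attachment sites exceeded inter-sites on day 24 by 1.48 (95% interval -0.36 to 3.32, adjusted p = 0.751). Against non-pregnant sows, the day 13 differences were 0.39 at attachment sites (-1.45 to 2.23) and 0.33 at inter-sites (-1.52 to 2.17). Without both libraries that stood apart, day 24 inter-sites were above day 18 by 2.46 and above day 13 by 2.62, the site difference on day 24 was 1.01, and day 13 inter-sites differed from non-pregnant sows by 0.34. The rise from day 18 missed the threshold without day 18 replicate 3 or day 24 replicate 2 or 3 (3.14, 3.65 and 3.69, adjusted p = 0.0735 to 0.0886), and that from day 13 without day 13 replicate 3 (2.81, adjusted p = 0.0641).

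SERPINA1, alpha-1-antitrypsin, is an abundant plasma protein that inhibits neutrophil elastase. On day 13 it lay at the lower edge of what the array measured, and at attachment sites of day 24 it was bright. In non-pregnant sows it was at -5.51, -6.57 and -5.44, with 0 of 3 arrays well above background. On day 13 it was at -6.97, -5.36 and -3.05 at attachment sites (2 of 3 arrays well above background) and at -4.72, -7.54 and -6.08 at inter-sites (1 of 3). On day 18 it was at -4.26, -0.50 and -4.91 at attachment sites and -5.38, -2.91 and -3.62 at inter-sites. On day 24 the attachment sites had 0.66, 4.02 and 3.98 and the inter-sites -2.33, -2.76 and -0.99, and these groups did not overlap.

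The mean of SERPINA1 was 2.89 ± 1.93 at day 24 attachment sites, followed by day 24 inter-sites (-2.03 ± 0.92), day 18 attachment sites (-3.22 ± 2.38), day 18 inter-sites (-3.97 ± 1.27), day 13 attachment sites (-5.13 ± 1.97), non-pregnant sows (-5.84 ± 0.63) and day 13 inter-sites (-6.11 ± 1.41). Day 24 attachment sites lay apart from the next group, and every other neighbour overlapped. Without the libraries that stood apart the inter-site means were -2.54 on day 24 and -6.81 on day 13, which leaves the order as it was. At attachment sites it rose 69.0-fold from day 18 to day 24, by 6.11 (SE 1.21, adjusted p = 0.0106), and by 6.68 within one slide. From day 13 to day 24 it rose by 8.01 (SE 1.21, adjusted p = 0.000743), and by 7.63 and 9.38 within slides. Its dimmer probe was not well above background on the day 13 attachment-site arrays, 0 of 3, and by that probe day 24 was at least 175-fold higher. That probe was tested only because the day 24 groups had it well above background on all 3 arrays. For the brighter probe only groups of day 18 and day 24 did so, which favours a rise from day 13. The p-value of that probe against day 13 is therefore no support for the rise.

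Attachment sites of day 24 exceeded inter-sites in SERPINA1 by 4.91 (SE 1.21, 95% interval 2.36 to 7.47), a 30.1-fold higher level with adjusted p = 0.120. Within the 2 slides with both groups the difference was 4.97 and 6.78, the former resting on the day 24 library that stood apart. Without both libraries that stood apart it was 5.43. It passed the threshold without day 24 attachment-site replicate 1 (6.02, adjusted p = 0.0399), with another background correction named normexp (4.04, adjusted p = 0.0393) and with sets of alike libraries as a random block (4.90, adjusted p = 0.0330). In 16 of the 19 alternatives run it stayed uncalled, with a limma adjusted p up to 0.567 when 1 array was left out. At inter-sites day 24 was above day 13 by 4.09 (SE 1.21, adjusted p = 0.146), and by 0.42 with normexp. The dimmer probe was well above background on 0 of 3 day 13 inter-site arrays, and by it day 24 was at least 6.20-fold higher. Without both libraries that stood apart neither day 13 inter-site array left was well above background at either probe, so no difference is given. The rise from day 18 at attachment sites missed the threshold without day 24 replicate 2 or 3 (5.54 and 5.56, adjusted p = 0.0654 and 0.0627), and normexp background correction gave 4.90 in place of 8.01 for day 24 against day 13. The 2 probes correlated at 0.961 and disagreed in sign for day 13 attachment sites against non-pregnant sows (0.72 and -0.45), where both groups lay near background.

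SERPINA3-2 is one of several closely related pig genes for alpha-1-antichymotrypsin, an acute phase inhibitor of cathepsin G and chymase, and what its single probe shares with the other copies was not tested. It was at -2.52, -1.97 and 1.204 in non-pregnant sows, at -3.31, -3.37 and -2.05 at attachment sites of day 13, and at -6.26, -3.25 and -2.48 at inter-sites, the lowest value being that of the library that stood apart. The probe was not well above background in that library. On day 18 it was at 1.41, 1.56 and -2.54 at attachment sites and -2.34, -1.02 and -1.92 at inter-sites. On day 24 it was at 5.77, 5.77 and 6.48 at attachment sites and 2.29, 4.86 and 1.64 at inter-sites. Every day 24 array, of either site type, was above every array of the earlier groups.

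The order of the means was day 24 attachment sites (6.005 ± 0.41), day 24 inter-sites (2.93 ± 1.70), day 18 attachment sites (0.14 ± 2.32), non-pregnant sows (-1.10 ± 2.01), day 18 inter-sites (-1.76 ± 0.68), day 13 attachment sites (-2.91 ± 0.75) and day 13 inter-sites (-3.997 ± 1.997). The first 3 groups did not overlap each other, and the later neighbours did. Without the libraries that stood apart the inter-site means were 3.58 on day 24 and -2.87 on day 13, and the latter then lay above that of day 13 attachment sites. At attachment sites it rose 58.1-fold from day 18 to day 24, by 5.86 (SE 1.19, adjusted p = 0.0117), and 483-fold from day 13, by 8.92 (SE 1.19, adjusted p = 0.000358), with 6.97, and 9.08 and 9.14, within slides. Without day 24 replicate 2 or 3 the former missed the threshold (5.98 and 5.62, adjusted p = 0.0535 and 0.0615).

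SERPINA3-2 was also the one gene of the 4 that was called at inter-sites, where it rose 122-fold from day 13 to day 24, by 6.93 (SE 1.19, adjusted p = 0.0409). The day 13 mean includes replicate 1 (-6.26), which stood apart and was not well above background. Within 1 slide the rise was 8.55, a value that rests on that same array. Without both libraries that stood apart the rise was 6.44 (adjusted p = 0.0541). It also missed the threshold without day 13 replicate 1 or 2 or day 24 replicate 1 or 2 (5.80, 7.30, 7.25 and 5.96, adjusted p = 0.0573 to 0.189). Attachment sites of day 24 exceeded inter-sites by 3.07 (95% interval 0.56 to 5.58, adjusted p = 0.479), and by 2.43 without both libraries. Within slides the difference was 4.84 and 0.91, the former resting on the day 24 library that stood apart. From day 13 to day 18 the difference at attachment sites was 3.06 (SE 1.19, adjusted p = 0.155), and without day 18 replicate 3, the lowest array there, it was 4.40 (adjusted p = 0.0235).

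Read over the whole array, the calls fell mainly on the attachment sites of day 24. The 4 genes were chosen on levels of these arrays, so no excess over all probes is read from the counts below. For day 24 against day 13 at attachment sites 4 of the 4 genes were called, all higher, where 15.7% of all tested probes were called and 8.43% were called higher. For day 24 against day 18 there 3 of 4 were called, against 5.64% of probes, and for day 18 against day 13 1 of 4, against 1.79%. At inter-sites 1 of 4 was called for day 24 against day 13, against 0.246% of probes. For day 24 against day 18 at inter-sites limma called 0 of 4 (3 at an unadjusted p under 0.05), against 0.143% of probes, and for day 18 against day 13 it called 0 of 4 (0 unadjusted), against 0.00665%.

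In the comparisons of day 24 with day 13 the arrays of the groups did not overlap for 4 of the 4 genes at either site type. This held for 44.5% of all tested probes at attachment sites and 15.6% at inter-sites. Here too no excess is read, since the genes were chosen on these arrays. All 4 genes were thus higher on day 24 than on day 13 on every array at both site types, though at inter-sites 3 of these differences missed the threshold.

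For pregnancy on day 13 at attachment sites, 1.79% of probes were called, and of the 4 genes SLPI was; it was chosen on that difference, so nothing is read from the count. At inter-sites limma called 0 of 4 (2 at an unadjusted p under 0.05), against 0.449% of probes: SLPI was at -2.38 (SE 0.945, adjusted p = 0.211) and SERPINA3-2 at -2.90 (SE 1.19, adjusted p = 0.223) relative to non-pregnant sows. Without the library that stood apart the SLPI difference was -3.46 (adjusted p = 0.0566) and that of SERPINA3-2 -1.77. For attachment site against inter-site limma called 0 of 4 on day 13, 0 of 4 on day 18 and 0 of 4 on day 24 (0, 1 and 2 at an unadjusted p under 0.05), against 0%, 0% and 0.279% of probes. Each pregnant sow gave both site types, but the labels do not say which arrays share a sow. The fit therefore did not pair them, and spread between sows stays in these differences. The 3 changes of the site difference between days, tested for each gene, gave 0 calls in 12 limma tests (3 at an unadjusted p under 0.05), with a lowest adjusted p of 0.599, against 0%, 0.00997% and 0.0199% of probes. These comparisons share groups, so their counts are not independent of each other.

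**Figure D3:**
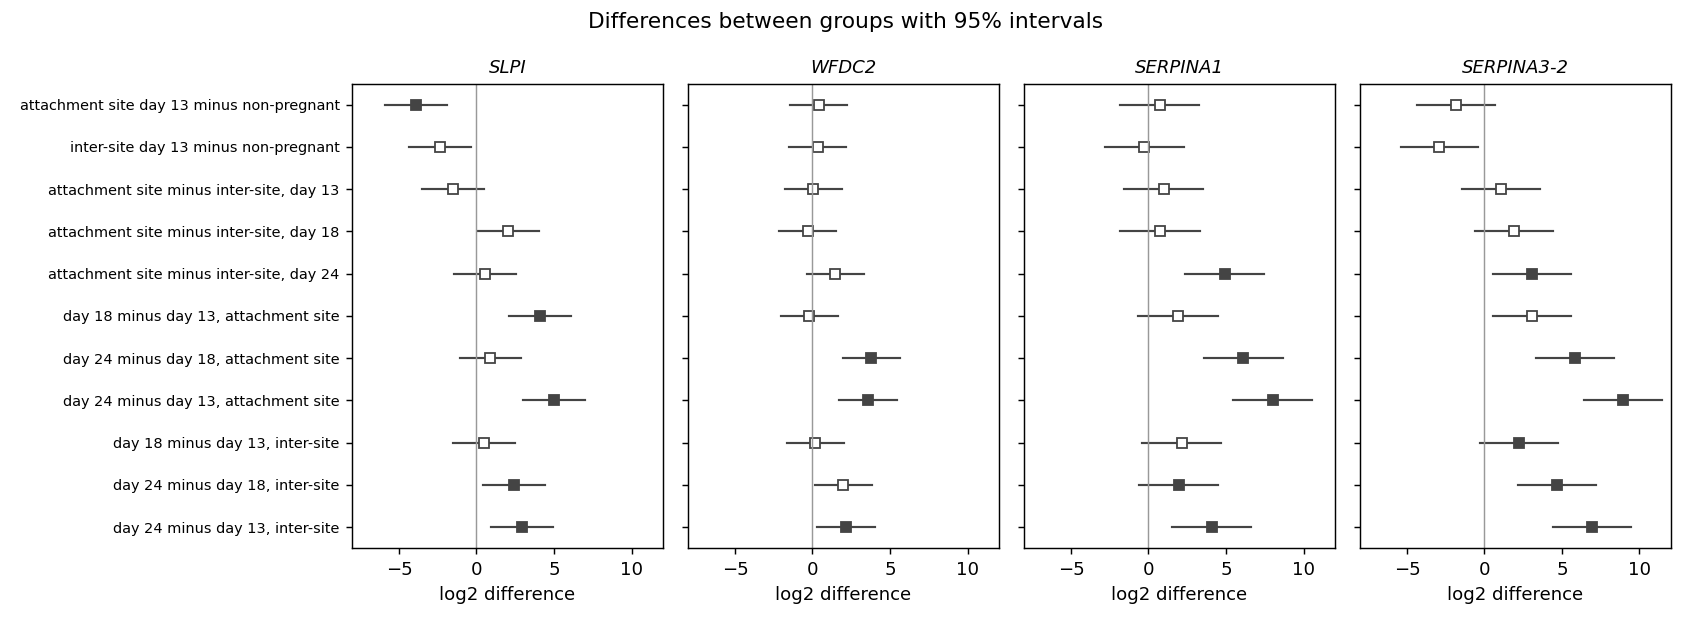
Log2 differences between groups (horizontal axis) for each gene in the 11 comparisons (rows), with 95% intervals from the fit. Squares are filled where the arrays of both groups did not overlap; the widest gaps from 0 are those of the serpins for day 24 against day 13 at attachment sites (8.01 and 8.92), and SLPI alone lies left of 0 with filled symbols.

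Some markers of conceptus tissue were high on the arrays where the serpins were. The summed level of 7 conceptus and trophoblast markers on the array was 3.46 to 3.84 on the arrays of day 13, pregnant or not, 4.08 to 6.05 at attachment sites of day 18, 6.61 to 8.34 at those of day 24 and 3.84 to 6.23 at inter-sites of day 24. CYP19A3, a placental aromatase of the pig, was well above background on the 3 arrays of day 24 attachment sites and on none of the other 18. PAG6, a trophoblast glycoprotein, was at 6.29, 7.93 and 8.17 at attachment sites of day 24, and AFP, a yolk sac and foetal liver protein, at -0.39, 3.11 and 3.28 there. The sum was close to PAG6 alone on the brightest array (8.34 against 8.17). Of the other markers, GATA3 had means of 1.36 on day 18 and 3.85 on day 24 at attachment sites, CYP19A1 of 2.14 and 2.26, GATA2 of 2.73 and 3.05, and IL1B2 of -1.92 and -1.99. IFNG went the other way, at 0.28 on day 18 and -2.63 on day 24. At attachment sites of day 24 SERPINA1 was lowest on replicate 1, where PAG6, AFP and the summed markers (6.61) were lowest too. On day 18 there it was highest on replicate 2, where PAG6 (5.48), AFP (-0.87) and the summed markers (6.05) were highest too. The order was reversed at inter-sites of day 24. There SERPINA1 was lowest on replicate 2 (-2.76), where PAG6 (5.78), AFP (-2.11) and the summed markers (6.23) were highest.

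Over the 21 arrays the summed conceptus markers correlated at 0.877 with SERPINA1, 0.836 with SERPINA3-2, 0.712 with WFDC2 and 0.587 with SLPI, which describes arrays that share groups and scaling. The summed level of the 7 yolk sac and embryonic blood markers was 3.64 to 5.27 on the day 13 arrays. At attachment sites it was 4.97 to 8.66 on day 18 and 6.96 to 8.60 on day 24. At inter-sites it was 3.95 to 4.98 on day 18 and 4.04 to 5.65 on day 24. This sum was close to HBE1 alone on its brightest array (8.66 against 8.60). TTR of that list was at -0.91, -2.54 and -2.32 at attachment sites of day 13 and -5.22, -2.86 and -2.08 on day 18. On day 24 it was at -3.90, -0.079 and 0.32 there. The part of conceptus RNA in the levels of the 4 genes was not tested. In the day 24 inter-site library that was alike to a non-pregnant one (replicate 3), PAG6 (-4.97) and AFP (-7.50) were not well above background and the summed conceptus markers were at 3.84, while SERPINA1 was at -0.99, SERPINA3-2 at 1.64, WFDC2 at 6.46 and SLPI at 9.24. The non-pregnant library alike to it, replicate 3, had SERPINA3-2 at 1.204, WFDC2 at 6.03 and SLPI at 8.99. SERPINA1 was at -5.44 there, not well above background.

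**Figure D4:**
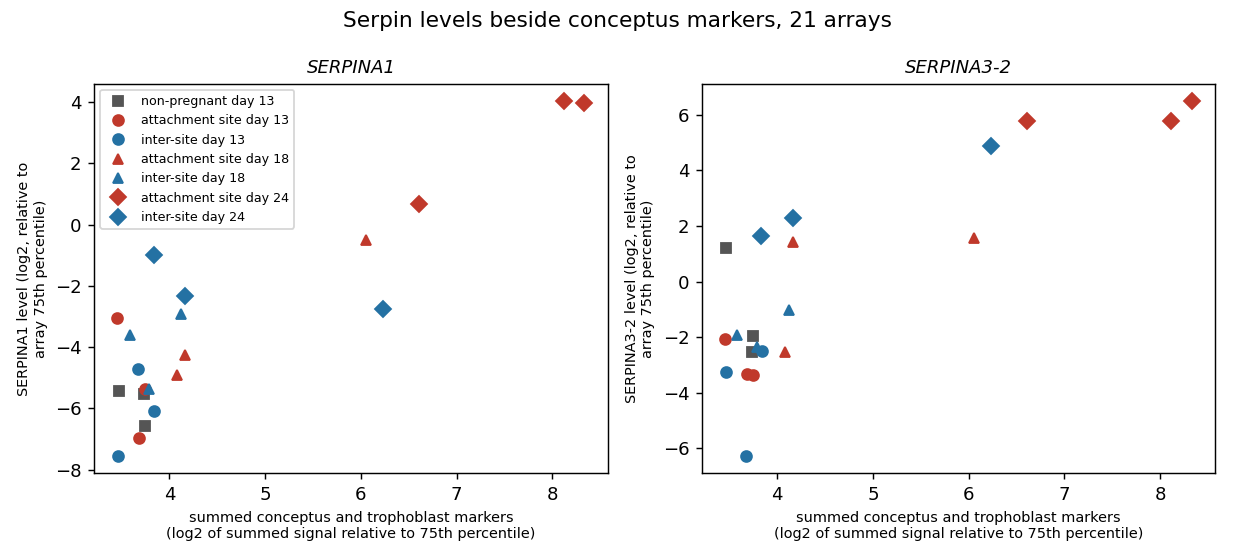
SERPINA1 (left) and SERPINA3-2 (right) levels (vertical axes, log2 relative to the array's 75th percentile) against the log2 summed signal of the conceptus and trophoblast markers (horizontal axes) on the 21 arrays, with symbols by group. The 3 day 24 attachment sites lie at the upper right of both panels, and one day 24 inter-site array lies at 3.84 on the horizontal axis with SERPINA1 at -0.99 and SERPINA3-2 at 1.64. That array is replicate 3, which was alike to a non-pregnant one.

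Markers of the other cell types tracked the 4 genes less closely. Summed epithelial markers ran from 6.08 to 7.73 and correlated at -0.34 with SLPI and 0.33 with WFDC2, and they were at 7.43 to 7.73 at day 13 attachment sites, where SLPI was lowest, and at 6.51 to 7.62 in non-pregnant sows. Neutrophil and macrophage markers (7 on the array) were at 5.14 to 5.35 at attachment sites of day 24, 5.16 to 6.20 at those of day 18, 3.87 to 5.92 at those of day 13 and 3.498 to 5.504 in non-pregnant sows. At inter-sites they were at 3.76 to 5.81 on day 13, 4.10 to 4.63 on day 18 and 4.40 to 5.02 on day 24. Their correlations with the 4 genes were 0.19 to 0.38. Smooth muscle markers (4 on the array) ranged from 5.09 to 10.6 and correlated at 0.19 with SLPI and -0.30 with WFDC2. One stromal marker was on the array, with correlations of 0.21 to 0.46. The part of these cell types in the results was not tested.

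Among themselves the serpins were most alike over the 21 arrays (Pearson r = 0.823), followed by WFDC2 with SERPINA3-2 (0.75), SLPI with SERPINA3-2 (0.662), WFDC2 with SERPINA1 (0.641), SLPI with WFDC2 (0.572) and SLPI with SERPINA1 (0.544). The 5 named genes closest to each member, of 2017 compared over the 21 arrays, differed between members. For SLPI they were CHI3L1 (0.866), TMSB10 (0.866), IFI30 (0.847), IFRD1 (0.841) and TGFBR1 (0.837). CHI3L1, a secreted chitinase-like glycoprotein, had means of 1.78 in non-pregnant sows, -2.22 at attachment sites of day 13 and 1.83 at those of day 24. For WFDC2 they were FABP3 (0.922), LRP8 (0.902), PTGR1 (0.897), SLC15A1 (0.895) and BSG (0.891). FABP3, a fatty acid binding protein, had means of 0.23 to 0.72 in the groups before day 24 and 3.42 at attachment sites of day 24.

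For SERPINA1 the closest genes included AKR1B1 (0.860), DPPA5 (0.859), TIMP1 (0.836) and PPAG3 (0.835). PPAG3 is a pregnancy-associated glycoprotein of the trophoblast. For SERPINA3-2 they were TIMP1 (0.955), DNAJC3 (0.932), RPN2 (0.913), SOCS3 (0.911) and DDOST (0.907). TIMP1, an inhibitor of matrix metalloproteinases, was the one gene among the closest 5 of both serpins, and its mean was 5.06 at attachment sites of day 13 and 7.05 at those of day 24.

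The rest of the inhibitor families were read from lists, which were drawn up with earlier results known. Of other WAP genes 1 was tested: PI3, or elafin, an elastase inhibitor. PI3 was well above background on 0 of the 9 arrays of day 13, and attachment sites of day 24 exceeded those of day 13 at least 2.67-fold (-4.39, -4.66 and -3.46 on day 24, limma adjusted p = 0.0305). A probe was tested only where some group had it well above background on all its arrays. For PI3 that could only be a group after day 13, which favours a rise, so the p-value is no support for it. Of 9 other serpins, 4 rose from day 13 to day 24 at attachment sites and 0 fell, with a median difference of 1.38 against 0.02 over all probes, of which 8.43% were called higher and 15.7% either way. These were SERPINE2, which inhibits thrombin and plasminogen activators (3.49, SE 0.478, adjusted p = 0.000422), the C1 inhibitor SERPING1 (1.62, SE 0.323, adjusted p = 0.00399), SERPINF1 (1.38) and the thyroxine carrier SERPINA7 (2.39). From day 13 to day 18 there, SERPINB9, an inhibitor of granzyme B, rose by 1.35 and SERPING1 by 1.35.

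Of 11 other inhibitors 5 rose at attachment sites between day 13 and day 24 and 0 fell, with a median of 1.28, against the same 8.43% of probes called higher: TIMP1 (1.99, SE 0.287, adjusted p = 0.000576), the cysteine protease inhibitor CST3 (2.80, SE 0.482, adjusted p = 0.00161), ITIH4, ITIH2 and SPINK4. TIMP1 also rose at inter-sites (1.48, SE 0.287, adjusted p = 0.0474). UABP-2, a uterine serpin of the pig, was added after its values were seen because it varied most within groups. It was at 7.07, 8.26 and -1.16 in non-pregnant sows and at 8.79, 8.89 and 8.78 at attachment sites of day 24, and was not called from day 13 to day 24 there (2.33, SE 2.14, adjusted p = 0.508).

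Serine proteases include those that such inhibitors act on. Of 17 tested, 5 rose and 2 fell from day 13 to day 24 at attachment sites, with a median of 0.24, where 15.7% of all probes were called. Complement factor B (CFB, 3.44), the urokinase PLAU (2.41), prothrombin (F2, 2.79) and C1S (1.21) rose, and the lymphocyte protease GZMB fell (-1.84, SE 0.315, adjusted p = 0.00159). Of 17 acute phase and plasma proteins 5 rose there and 0 fell, among them AFP (6.83, SE 1.38, adjusted p = 0.00427), APOC3 (2.78) and ITIH4 (1.48), with a median of 0.47, against 8.43% of probes called higher. In the 3 comparisons of site types limma called 0 genes of any of these lists. At an unadjusted p under 0.05 it had 0 serpins on day 13, 2 of 9 on day 18 and 2 of 9 on day 24, and for the other inhibitors 0, 4 and 3 of 11. Left-out libraries were not run for the genes of these lists.

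**Figure D5:**
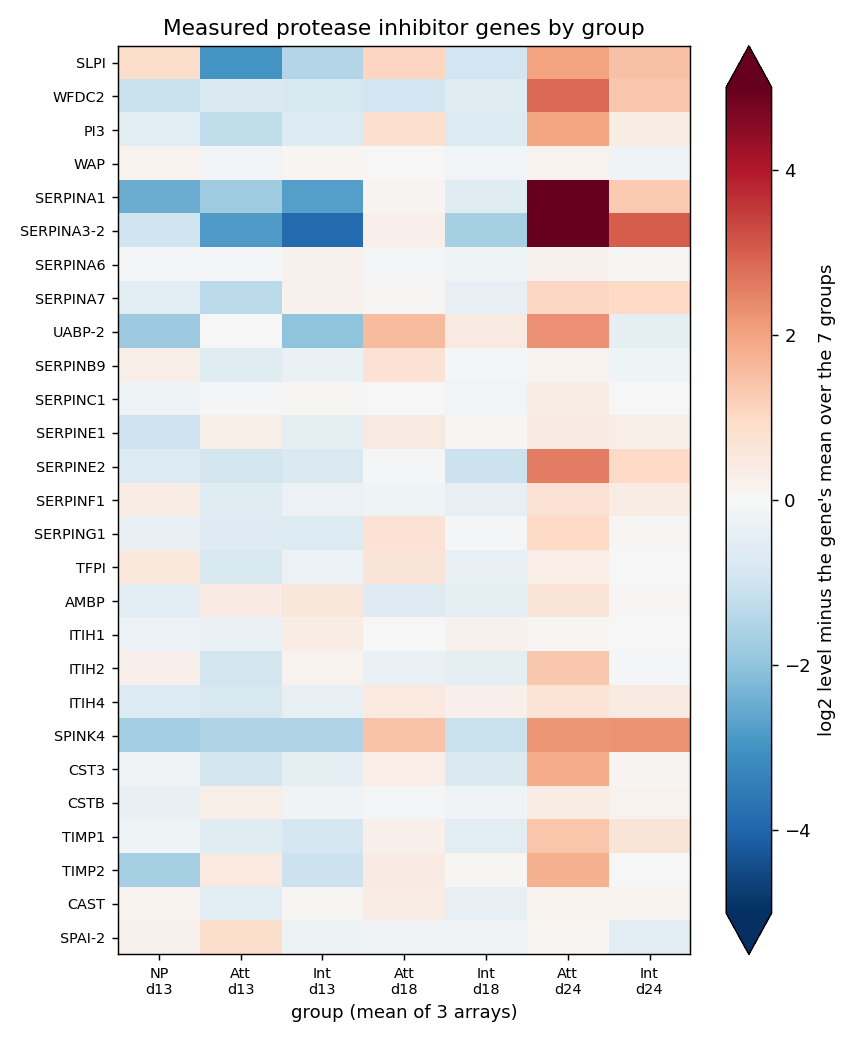
Group means (columns) of each protease inhibitor gene on the array (rows), as log2 level minus the gene's own mean over the 7 groups, on a colour scale whose ends also hold values beyond it. Day 24 attachment sites hold the strongest red for both serpins described here, and SLPI is blue at attachment sites of day 13.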

How the data were processed

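Scanner files with the intensity of every spot were deposited for each array. Agilent Feature Extraction made them (10.7.3.1 in the file headers, 10.7 in the submitters' processing notes). Its processed intensity had the background removed and spatial trends taken out within the array, per the file headers, which record no scaling between arrays. Quality flags came from the same deposited files. The authors' deposited table of log2 values was quantile normalized (median 5.85 per column) and served as an alternative. In it 19 of 21 columns correlated best with their own scanner file, and those of day 24 inter-site replicates 2 and 3 followed each other's.

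Control spots and outlier spots were left out. The 75th percentile of an array was subtracted from its log2 processed signals. A probe was tested where some group had it well above background on each of its 3 arrays (30094, with 13509 left out). Gene names came from RefSeq accessions matched to a pig RefSeq table (5461 of 5779 probes). The probe with the highest mean stood for a gene. A model of 7 group means was fitted to the 21 arrays with limma 3.58.1 in R 4.3.3 (14 residual and 2.71 prior degrees of freedom), with Benjamini-Hochberg adjustment over all tested probes within each of 11 comparisons and 3 contrasts of site differences, at a threshold of 0.05. The fit was tested on simulated data. For a probe at background throughout a group, a bound sets the brighter group's mean against a floor for each dim array: its faintest probe well above background, or the probe itself where brighter. Precision is limited by the number of arrays.

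The members and the lists were chosen with earlier results of these data known. Named genes were the members, the 5 closest in correlation to each, and from each list at most 5 of those called with the smallest adjusted p, plus PI3. One gene close to SERPINA1 is not reported here. Alternatives covered background correction, scaling, the deposited table, the filter on dim probes, slide and replicate number as blocks, other probes, the samples in the fit and left-out arrays. Normexp on the median spot intensity, each other probe and sets of alike libraries as a random block were chosen after seeing the data. No sequences were used here.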

Additional observations from a re-analysis of the deposited data

How the results depend on the processing

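Apart from the SLPI difference that chose the gene, 9 differences were called. Of these, those of SLPI, SERPINA1 and SERPINA3-2 for day 24 against day 13 at attachment sites kept their call under every alternative run, SERPINA1 and SERPINA3-2 with values of 4.90 to 9.12 and 7.53 to 9.70. Quantile normalization, array median scaling, the deposited table, the mean of all probes and each other probe changed no call among the 9. The dimmer SERPINA1 probe was tested only through the day 24 groups, and the brighter through those of day 18 and day 24. The SLPI calls against day 13 reuse the arrays that chose the gene. Calls of both genes against day 13, and those of the dimmer probe for day 24, thus add no support. Labels give groups the same replicate numbers, but 4 of 9 same-numbered pairs of sites deviated together (r over 0.1), so they were not taken as pairs; with the replicate block all 9 calls held, and SLPI was at -3.91 for attachment sites of day 13 against non-pregnant sows.

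SLPI for attachment sites of day 13 against non-pregnant sows, given with no test, was negative in each of these settings: normexp (-3.73), no filter on dim probes (-3.91), slide as a block (-4.17), slide as a random block (-3.87), sets of alike libraries as a random block (-3.58) and without any one array (-4.27 to -3.31). SLPI for day 18 against day 13 at attachment sites missed the threshold with no filter (4.10), the slide block (4.52), the alike-library block (3.38) and only the arrays compared (4.10). WFDC2 for day 24 against day 18 missed it with normexp (3.502) and the slide block (3.70), and SERPINA1 with only the arrays compared (6.11). SERPINA3-2 for day 24 against day 13 at inter-sites missed it with normexp (4.47), no filter (6.93), the alike-library block (6.52), only the arrays compared (6.93) and without both libraries that stood apart (6.44). Values at unchanged size missed it because another number of probes or arrays entered the fit; for the rest the cause was not tested.

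With one array left out, SLPI ranged from 3.497 to 4.87 for day 18 against day 13 at attachment sites, WFDC2 from 3.14 to 4.17 for day 24 against day 18 and from 2.81 to 4.297 against day 13, SERPINA1 from 5.26 to 7.47 and SERPINA3-2 from 4.52 to 6.57 for day 24 against day 18, and SERPINA3-2 from 5.80 to 7.69 for day 24 against day 13 at inter-sites.

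The differences that changed sign were uncalled in every setting, and the cause was not tested. For SERPINA1 on day 13, normexp gave -0.29 for attachment sites and 0.15 for inter-sites against non-pregnant sows and -0.44 between sites, and the dimmer probe gave -0.45, 0.065 and -0.52. Normexp also gave -0.44 for SERPINA1 from day 13 to day 18 at inter-sites and -0.34 for SERPINA3-2 between sites on day 13. For WFDC2 between sites on day 13, the deposited table gave -0.12, quantile normalization -0.12 and the slide block -0.080. With the alike-library block WFDC2 was at -0.18 and -0.21 against non-pregnant sows at attachment sites and inter-sites, and at -0.20 from day 13 to day 18 at inter-sites. The slide block gave -0.63 for SERPINA1 and 0.11 for WFDC2 between sites on day 18, 0.17 for WFDC2 from day 13 to day 18 at attachment sites, and -0.83 for SLPI and -0.023 for WFDC2 at inter-sites. SERPINA3-2 between sites on day 13 was at -0.047 without both libraries that stood apart.

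With one array left out, sign changes ran from -0.33 to 1.16 (WFDC2) and -0.32 to 1.64 (SERPINA1) for attachment sites and -0.20 to 0.88 (WFDC2) and -0.97 to 0.44 (SERPINA1) for inter-sites against non-pregnant sows. Between sites they ran on day 13 from -0.66 to 0.83 (WFDC2), -0.053 to 1.91 (SERPINA1) and -0.047 to 1.84 (SERPINA3-2), and on day 18 from -0.62 to 1.59 (SERPINA1) and -1.19 to 0.45 (WFDC2). From day 13 to day 18 they ran from -0.98 to 0.51 (WFDC2) at attachment sites and from -0.37 to 1.59 (SLPI) and -0.59 to 1.05 (WFDC2) at inter-sites.

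Counts over all probes, the background for the members' calls, moved by more than 1.5 times. Without leaving out arrays, the alternatives gave 0 to 1294 in place of 538 for attachment sites and 0 to 628 in place of 135 for inter-sites of day 13 against non-pregnant sows, and 0 to 2, 0 to 1 and 0 to 460 in place of 0, 0 and 84 for the sites on days 13, 18 and 24. At attachment sites they gave 3 to 762 in place of 540 for day 18 against day 13, 207 to 1790 in place of 1698 for day 24 against day 18 and 974 to 7256 in place of 4727 for day 24 against day 13. At inter-sites they gave 0 to 5 in place of 2, 1 to 26 in place of 43 and 1 to 120 in place of 74, and for the change in the site difference from day 18 to day 24 0 to 10 in place of 3. Leaving out arrays moved some further: day 18 against day 13 at attachment sites gave 3733 without day 18 attachment-site replicate 3 and 9 without replicate 1, and inter-sites of day 13 against non-pregnant sows gave 1158 without both libraries that stood apart and 0 without non-pregnant replicate 1. At inter-sites day 24 against day 18 gave 98 without both libraries, and day 24 against day 13 gave 226 without day 24 replicate 3 and 0 without replicate 2; the change in the site difference from day 18 to day 24 gave up to 18. Medians of all probes lay between -0.072 and 0.057, against -0.10 to 0.17 with array median scaling and -0.32 to 0.28 with normexp. SERPINA1 on day 13 lay near background, which limits its values there.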

Other observations

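Between day 18 and day 24 at attachment sites, when both serpins and WFDC2 rose, 5.64% of all tested probes were called. SERPINE2 rose by 2.67 (SE 0.478, limma adjusted p = 0.00608), 1 of 9 other serpins called, and TIMP1 by 1.14 (SE 0.287, adjusted p = 0.0290), 1 of 11 other inhibitors called. Of the 17 serine proteases, 2 rose and 2 fell. Plasminogen, PLG, the precursor of plasmin, was well above background on 0 of 3 arrays of day 18 and at least 15.0-fold higher on day 24 (adjusted p = 0.0245). PLG could be tested only through a group other than these day 18 sites, so that p-value is no support for its rise. F3, which starts coagulation, rose by 2.15. The granzymes GZMB and GZMA of cytotoxic lymphocytes fell by 1.67 and 2.07.

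Against non-pregnant sows, attachment sites of day 13 had 1 call among the 17 acute phase and plasma proteins, where 1.79% of all tested probes were called. SAA3, a serum amyloid A protein made outside the liver, was higher there by 4.07 (SE 0.941, adjusted p = 0.0397), while SLPI was lower. For the other 4 lists limma called 0 genes in that comparison (at an unadjusted p under 0.05, 3 of 9 serpins, 3 of 11 other inhibitors, 3 of 17 serine proteases and 0 of 1 WAP gene, against 6100 of 30094 probes).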
